A study of Kalanchoe laxiflora with 7 samples.

Results

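In the leaf transcriptome of Kalanchoë laxiflora, a succulent of the Crassulaceae, 20 of 27768 gene models had no read in any of 4 wild-type libraries and at least 5 reads in each of 3 KlaxMUTE1 OE libraries. These 20 gene models were chosen by these raw counts. The overexpressed gene KlaxMUTE1 (KlGene012921) met the same limits and was left out as the target of the transgene. Its paralog KlaxMUTE2 (KlGene023418), also left out, did not meet them, with 6 counts in wild-type replicate 1. The KlaxMUTE1 OE plants were 3 independent lines that carry mCitrine-KlaxMUTE1 under the constitutive 35S promoter and went through tissue culture-based transformation. Each line gave 1 library (replicates 1 to 3, called lines 1 to 3). The wild type was represented by 4 individuals of the same OBG accession. Poly(A)-selected RNA of the mature leaf of the seventh leaf pair was sequenced in both. Because the limits used the contrast of KlaxMUTE1 OE with wild type, the absence in wild type and the presence in the lines describe the choice and were not tested as findings.

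MUTE is a basic helix-loop-helix transcription factor of the stomatal lineage. In Arabidopsis thaliana it ends the asymmetric divisions of the meristemoid and commits the cell to the guard mother cell fate, and it acts only briefly in few epidermal cells of young leaves. The 35S promoter drives expression in most cell types, so the transgene places the factor outside its usual cells and stages.

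The libraries held between 20679921 and 27216722 counted reads in KlaxMUTE1 OE and between 18665659 and 24659199 in wild type. KlaxMUTE1 itself had 16950, 38933 and 55802 counts in lines 1 to 3, against 0 in each wild-type library, and the lines thus differ in the level of the transgene. Genes of photosynthesis marked the samples as leaf. The 5 annotated gene models of that list summed to between 5866 and 10455 CPM (counts scaled to a common library size after TMM normalization) in KlaxMUTE1 OE and to between 13731 and 15144 CPM in wild type. Their part in the results below was not tested. In bulk leaf RNA, fewer cells of a type and less RNA per cell cannot be told apart.

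The 20 gene models carry almost no annotation in the sources used here. Annotation notes were held for a stretch of the gene models on 1 contig, which takes in 1 of the 20, KlGene000053, a protein of unknown function. The others are given by their identifiers, and no function is assigned to them. All 20 had enough reads to be tested, and the quasi-likelihood fit of edgeR (Benjamini-Hochberg adjusted p under 0.1, log2 fold change over 1) called all 20 higher, where 12.6% of the 21902 tested gene models were called higher and 7.60% lower. By the choice itself, the groups did not overlap for any of the 20, and over the tested gene models the lines were all above wild type in 19.0%. The number called higher was 19 with DESeq2, for which 12.6% of all tested gene models were called. It was also 19 with limma-voom, which called 2156 of the 21902 tested gene models higher. The gene model missing from both was KlGene026155, for which DESeq2 gave no adjusted p and limma-voom an adjusted p of 0.133.

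The most abundant of the 20 was KlGene013244, with 83, 345 and 583 counts in lines 1 to 3 and none in wild type. Its level averaged 12.9 ± 10.1 CPM in KlaxMUTE1 OE (SD, n = 3). Per length, it averaged 42.4 TPM (the length-scaled values as deposited), above 82.1% of the tested gene models. Per length, it was the 1 member above the median of all tested gene models, which was 11.7 TPM in KlaxMUTE1 OE. By CPM, it stood above 48.6% of them, and no member was above their median of 13.5 CPM. For bounds on the fold, 3 counts were assumed in each wild-type library in place of 0, a floor that covers counting error only. KlGene013244 was at least 88.1-fold higher than this floor, and at least 50.8-fold higher when line 3 was left out.

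Clear expression in each of the 3 lines was also seen for KlGene025643 and KlGene003631. KlGene025643 had 194, 134 and 152 counts in lines 1 to 3 and none in wild type, the highest count of any member in its lowest line. Its level of 6.53 ± 2.47 CPM (SD, n = 3) was at least 44.7-fold above the wild-type floor, and at least 35.7-fold without line 1. KlGene003631 had 82, 62 and 60 counts in lines 1 to 3 and none in wild type. Its level of 2.76 ± 0.991 CPM (SD, n = 3) was at least 18.9-fold above the floor. These were the gene models with at least 20 counts in every line, together with KlGene013244. The highest line exceeded the lowest 2.16-fold for KlGene025643 and 1.97-fold for KlGene003631, against 6.06-fold for KlGene013244.

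A second group of members owed most of its reads to 1 line. KlGene026155 had 439, 9 and 17 counts in lines 1 to 3 and none in wild type, so that line 1 was 72.7-fold above line 2 on the CPM scale. Its bound of at least 49.5-fold over the wild-type floor fell to at least 3.35-fold without line 1. KlGene003452 followed the same order, with 199, 8 and 36 counts and none in wild type. Line 1 was 37.1-fold above line 2, and the bound of at least 25.4-fold was at least 5.89-fold without line 1. For both gene models, line 2 stood just above the limit of 5 counts that the choice set.

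KlGene022312 was highest in line 3, with 48, 10 and 158 counts in lines 1 to 3 and none in wild type, a 20.3-fold span between lines 3 and 2. Without line 3, its bound over the floor was at least 8.84-fold in place of 20.6-fold. Line 2 led for KlGene005735 with 5, 61 and 7 counts and for KlGene001810 with 8, 70 and 13 counts, with none in wild type for either. For KlGene005735, the 61 counts of line 2 exceeded line 1 by 8.19-fold in CPM, and without line 2 the level was at least 1.78-fold above the floor. For KlGene001810 the span was 5.87-fold, and without line 2 the bound was at least 3.11-fold. Line 2 was also the highest for KlGene019856, with 26, 70 and 11 counts in lines 1 to 3, and for KlGene000053, with 7, 36 and 24 counts. KlGene013949 leaned towards line 1, with 30, 8 and 13 counts in lines 1 to 3 and a 5.59-fold span. Each of the 3 lines was therefore the highest for at least 1 of the members with uneven counts.

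The remaining 9 members had at most 31 counts in any line, and the 95% exact Poisson intervals of their highest and lowest lines overlapped. Overlap of the intervals is not a test of the difference, and for KlGene019714, KlGene026899 and KlGene029877 it was marginal. Among them, KlGene014088 was the most even, with 8, 9 and 10 counts in lines 1 to 3, a span of 1.43-fold in CPM and a level of 0.357 ± 0.0638 CPM (SD, n = 3). KlGene015998, the shortest member, had 29, 23 and 18 counts and stood second of the 20 per length, at 7.15 TPM. KlGene015701 had the lowest level of all, with 5, 11 and 5 counts, a mean of 0.263 CPM and a bound of at least 1.80-fold over the wild-type floor. The others were KlGene006675 (16, 20 and 31 counts), KlGene018043 (14, 11 and 9 counts), KlGene019714 (19, 9 and 11 counts), KlGene026899 (19, 9 and 9 counts), KlGene026900 (12, 12 and 7 counts) and KlGene029877 (10, 15 and 31 counts). Over these 9, the bound over the wild-type floor ranged between 1.80-fold for KlGene015701 and 6.46-fold for KlGene015998.

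**Figure D1:**
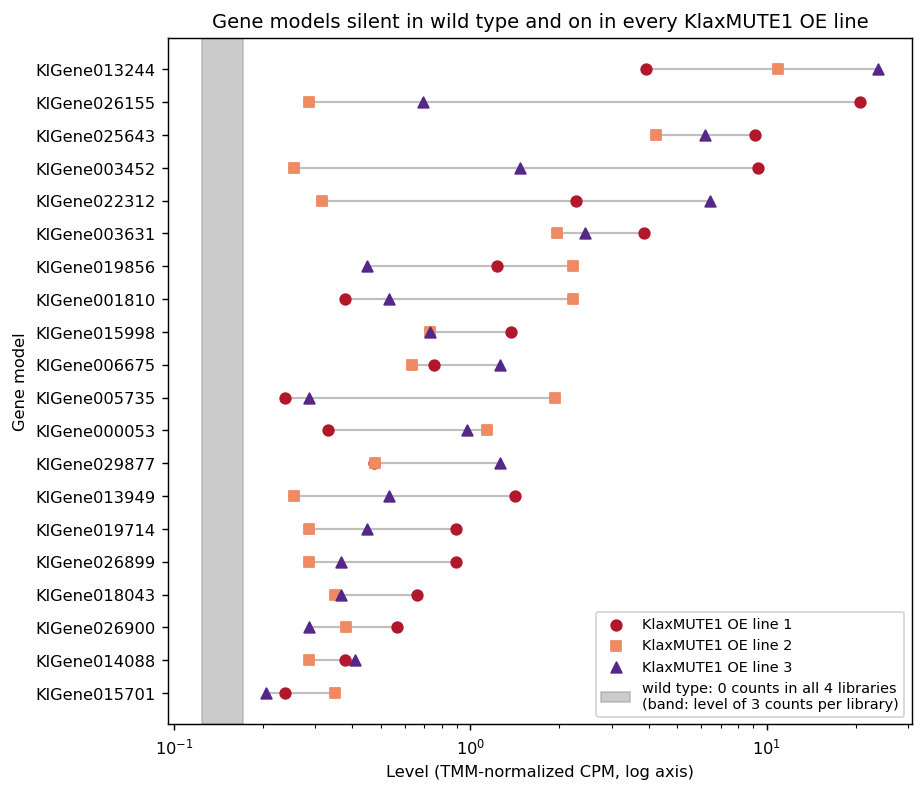
Level of the 20 gene models in each KlaxMUTE1 OE line on a log axis of TMM-normalized CPM, with 1 row per gene model, 1 symbol per line (1 library each) and a grey line from lowest to highest. The grey band marks the level that 3 counts would give in wild type, where all 20 had 0. KlGene013244 reaches 23.8 CPM in line 3 and KlGene026155 20.7 CPM in line 1, while KlGene015701 stays between 0.204 and 0.349 CPM.

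Taken over the 20, the mean level in KlaxMUTE1 OE ranged between 0.263 and 12.9 CPM with a median of 0.851 CPM, and 12 of the 20 stayed under 1 CPM. Per length, the median was 2.37 TPM, above 20.1% of the tested gene models. The bound over the wild-type floor had a median of 5.83-fold, was 10-fold or more for 6 members and under 5-fold for 6. With the highest line of each gene model left out, the median bound was 3.30-fold and the range 1.51-fold to 50.8-fold. The median fitted log2 fold change of the 20 was 7.30, beside 0.07 over all tested gene models. That fitted value depends on the prior count, since the wild-type group is at 0, and the median of the bounds corresponds to 2.54 on the log2 scale.

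The lines did not share 1 order. By CPM, 10 of the 20 were highest in line 1, 5 in line 2 and 5 in line 3, and 12 were lowest in line 2. The most frequent order, seen for 9 gene models, was line 1 above line 3 above line 2. Only KlGene013244 and KlGene029877 followed the order of the KlaxMUTE1 counts, with line 3 above line 2 above line 1, and for KlGene029877 lines 1 and 2 were nearly equal at 0.472 and 0.475 CPM. The highest and lowest lines had separate 95% exact Poisson intervals for 11 of the 20 and overlapping ones for 9. These intervals cover counting error only, and with 1 library per line no test between lines can be made. Among the 8214 tested gene models with at least 5 counts in every line and summed counts of KlaxMUTE1 OE within the range of the members (21 to 1011), 42.6% were highest in line 1 and 34.2% lowest in line 2, beside 50.0% and 60.0% of the 20. The median span between highest and lowest line was 1.82-fold there and 3.14-fold for the 20. A span over 5-fold was seen for 11.5% there and for 7 of the 20. Within that range the 2 sets were not matched on level, and 12 of the 20 had under 10 counts in at least 1 line. A limit of 5 counts is also a lower CPM in line 2, the deepest library. The part of counting error and of this limit in these differences was not tested.

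The reads of the members summed to 1253, 932 and 1205 counts in lines 1 to 3, or 59.2, 29.5 and 49.1 CPM. KlGene013244 supplied 6.62% of this sum in line 1, 37.0% in line 2 and 48.4% in line 3. Without it, the sums were 55.2, 18.6 and 25.3 CPM in lines 1 to 3. KlGene026155 supplied 20.7 CPM of the sum in line 1, and without both gene models the sums were 34.5, 18.3 and 24.7 CPM. Line 1 had the highest sum in each case. KlGene003452 supplied 9.39 CPM of each of these sums in line 1, against 0.254 and 1.47 CPM in lines 2 and 3. Line 1 also had the fewest KlaxMUTE1 counts, and with 1 library per line a relation between the 2 was not tested.

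**Figure D2:**
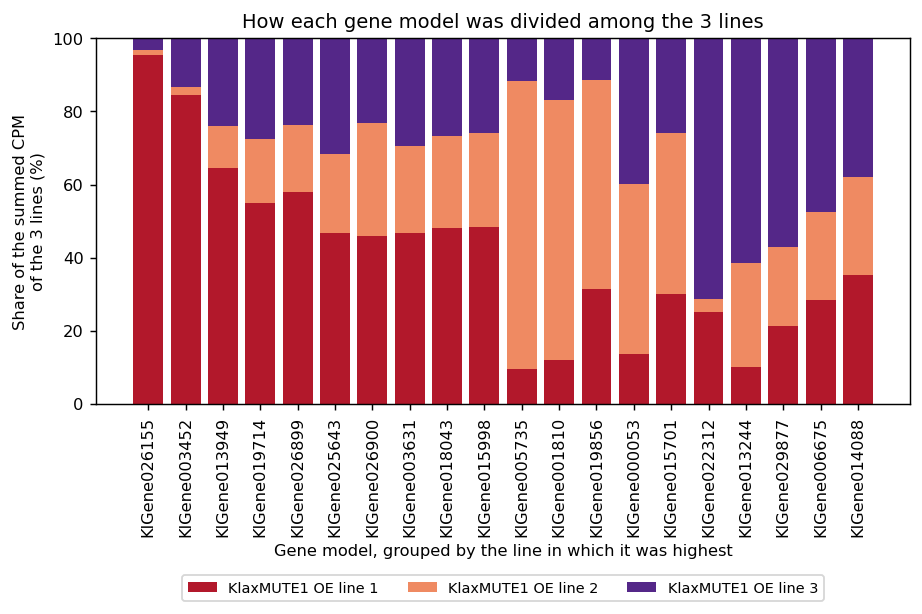
Share of each KlaxMUTE1 OE line (1 library each) in the summed CPM of the 3 lines, in percent, for the 20 gene models, grouped by the line in which each was highest. Line 1 leads in 10, with 95.5% for KlGene026155, and lines 2 and 3 lead in 5 each.

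The 20 are part of a larger set of gene models without wild-type reads. Of the 27768 gene models, 4685 besides KlaxMUTE1 were without a read in wild type, and 3622 of these were without one in the lines too. At least 5 counts in 1 or more lines were reached by 254. Of these, 190 (74.8%) reached them in 1 line, 44 (17.3%) in 2 lines and 20 (7.87%) in all 3. Line 2 had the most gene models of its own, 102, against 61 in line 1 and 27 in line 3. It was also the deepest library, with 27216722 counted reads, and this split was not repeated at equal depth. Of the 190, 74 had 0 counts in both other lines and 116 had at least 1 count in another line. The 20 make up 19.8% of the gene models on in line 1, 12.6% of those on in line 2 and 25.6% of those on in line 3.

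**Figure D3:**
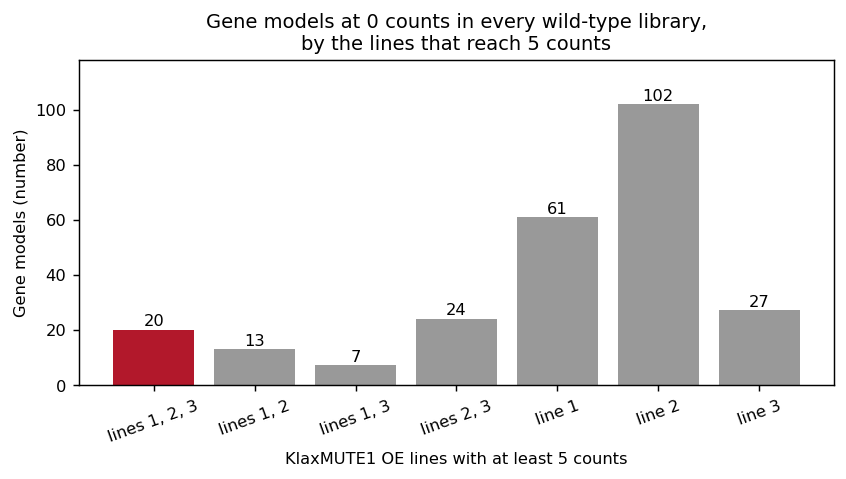
Number of gene models without wild-type reads, by the KlaxMUTE1 OE lines in which they reach at least 5 counts. The red bar holds the 20 gene models on in lines 1, 2 and 3, beside 102 on in line 2 alone, 61 in line 1 alone and 27 in line 3 alone.

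The background in wild type was measured the same way, by the gene models with at least 5 counts in 1 wild-type library and 0 in the other 3. There were 7, 11, 4 and 4 of them in wild-type replicates 1 to 4. Against sets of 3 wild-type libraries, line 1 had 123 to 145 such gene models, line 2 had 203 to 225 and line 3 had 103 to 120. Every line was above every wild-type library. The difference remained with all libraries thinned to 18665659 counts, where lines 1 to 3 had 103, 133 and 73 gene models at 0 in all 4 wild-type libraries, and wild-type replicates 1 to 4 had 8, 7, 4 and 5 at 0 in the other 3. In the opposite direction, 2 gene models had 0 counts in all 3 KlaxMUTE1 OE libraries and at least 5 in all 4 wild-type libraries. Since the groups hold 3 and 4 libraries, the limits are not of equal strength in the 2 directions.

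**Figure D4:**
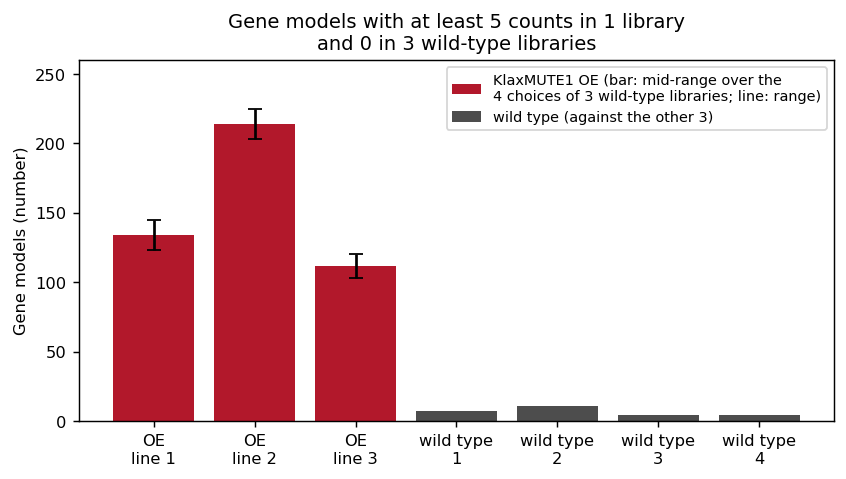
Number of gene models with at least 5 counts in 1 library and 0 in 3 wild-type libraries. For KlaxMUTE1 OE, the bar is the middle and the black line the range over the 4 choices of 3 wild-type libraries (103 to 225 over the lines), and each wild-type library is set against the other 3 (4 to 11).

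At the edge of the choice, KlGene005735 and KlGene015701 had exactly 5 counts in their lowest line. Just outside, 7 gene models without wild-type reads had 4 counts in their lowest line and 10 had 3. KlGene009574 was the most abundant of these, with 139, 940 and 4 counts in lines 1 to 3. On the other side, 23 gene models had at least 5 counts in every line and 1 count over the 4 wild-type libraries, 22 had 2 counts and 26 had 3. The median sum over the 3 lines was 107 counts for the gene models with 1 wild-type count and 68.5 counts for the 20. The highest count in a line among the gene models with 1 wild-type count was 1654, above the 583 counts of KlGene013244 in line 3.

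The gene models were short. Their length ranged between 335 and 4505 bases with a median of 1294.5 bases, against 2875 bases over all tested gene models, and 17 of the 20 were shorter than that. Under 1000 bases were 9 of the 20, beside 12.7% of the tested gene models. A like length was found for the gene models on in 1 or 2 lines, with a median of 1347.5 bases, and for those without any read, with a median of 976.5 bases. Longer gene models collect more reads at the same level, so a limit of 0 counts favours short ones, and the part of this in the difference was not tested.

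Position was compared by identifier, since the identifiers of the gene models with notes follow the place on the contig in all 1189 steps between them. The members were spread over the identifiers, and 1 pair was adjacent, KlGene026899 and KlGene026900. Both were low in all lines, with 19, 9 and 9 counts for KlGene026899 and 12, 12 and 7 counts for KlGene026900. Of the 40 gene models nearest to a member by identifier on either side, up to 3 numbers away, 32 were tested. Of the 32, 10 were called higher. Leaving out the adjacent pair, 8 of 30 were called higher, beside 12.6% of all tested gene models. No strand setting of the counting is given in the sources used here, and reads that run past the end of a neighbour cannot be told apart from reads of the gene model.

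The neighbours called higher lay next to 7 members. KlGene015998 had one on each side. KlGene015997 had 340, 343 and 229 counts in lines 1 to 3, against 29, 48, 33 and 27 in wild-type replicates 1 to 4, and KlGene015999 had 3194, 1786 and 837 counts against 397, 215, 195 and 279. The log2 fold changes were 2.88 and 2.56. KlGene014088 likewise had a neighbour called higher on each side, with log2 fold changes of 1.63 for KlGene014087 and 1.65 for KlGene014089. Next to KlGene029877, KlGene029878 had 301, 261 and 130 counts in lines 1 to 3, against 21, 4, 2 and 7 in wild-type replicates 1 to 4 (log2 fold change 4.40). Next to KlGene013949, KlGene013950 had 4, 17 and 3 counts in the lines and none in wild type. By contrast, KlGene013244 lay beside KlGene013243, with a log2 fold change of -0.10, and KlGene025643 beside KlGene025642, with one of 0.50. Neither neighbour was called.

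Gene models with a note give a view of what else was without wild-type reads. Among them, 149 were without a wild-type read, and 13 of these reached 5 counts in at least 1 line, of which 10 have a note other than unknown function. Besides KlGene000053, none reached 5 in all lines. KlGene000936, similar to NFYB5, a subunit of the CCAAT-binding factor NF-Y, came closest with 5, 24 and 2 counts in lines 1 to 3. KlGene000109, similar to mouse Gid4, a substrate receptor of a ubiquitin ligase complex, had 231, 0 and 3 counts and thus had nearly all of its reads in line 1. The cytochrome P450 gene models were split between lines, with 23, 2 and 0 counts for the CYP749A22-like KlGene000119 and 0, 25 and 8 counts for the CYP71B26-like KlGene000293.

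Further single-line cases were KlGene000383, similar to the transcription factor WRKY72, with 16, 0 and 0 counts in lines 1 to 3, and KlGene001250, similar to the sulfate transporter SULTR3;4, with 0, 0 and 10 counts. KlGene000711, similar to CONSTANS-LIKE 5, had 0, 8 and 3 counts. KlGene000888, of unknown function, had 11, 0 and 4 counts. The other 4, KlGene000323 (similar to a subunit of DNA polymerase alpha), KlGene000647 (a purple acid phosphatase), KlGene000946 (a beta-glucosidase) and KlGene001125 (unknown function), had at most 6 counts in any line. At this depth a count of 0 in a line does not show that the gene was off there.

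Annotated gene models just outside the wild-type limit, with 1 to 3 wild-type counts in all and at least 5 in every line, numbered 4, and they were singled out after their values were seen. KlGene000060, similar to the B-box zinc finger protein CONSTANS-LIKE 16, had 685, 42 and 120 counts in lines 1 to 3 and 1 count over the 4 wild-type libraries. Its order of lines, 1 above 3 above 2, was that of KlGene026155 and KlGene003452. KlGene000797, similar to the transcription factor bHLH25, was even, with 18, 19 and 23 counts in the lines and 2 counts in wild type. KlGene000377, similar to the protein kinase APK2B, had 7, 11 and 6 counts and 1 in wild type, and KlGene000259, of unknown function, had 14, 23 and 8 counts and 2 in wild type. Since these 4 were picked by the same counts, their levels are a description, and no test is given.

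The gene lists that the notes allow were read in the same fit. None could hold a member, since KlGene000053, the only member with a note, is of unknown function. Over all annotated gene models, 141 of 987 tested (14.3%) were called higher and 74 lower. The lists were drawn by words in the notes, so a list can also hold gene models of other kinds. In the cell division list, 6 of 16 tested were higher and none lower, with a median log2 fold change of 1.08 beside 0.09 over all annotated ones. These 6 take in KlGene000697, which is similar to the histone-lysine methyltransferase ASHR3. The 6 included the mitotic cyclin KlGene000552 (similar to CYCB2-4), at 5.13 ± 1.29 CPM in KlaxMUTE1 OE (SD, n = 3) and 0.677 ± 0.244 CPM in wild type (SD, n = 4), a log2 fold change of 2.91 (edgeR adjusted p = 0.0033). The kinesin KlGene000953 (similar to ATK4) stood at 4.17 ± 0.789 CPM in KlaxMUTE1 OE (SD, n = 3) and 0.508 ± 0.166 CPM in wild type (SD, n = 4), and the replication licensing factor KlGene000966 (similar to MCM7) at 2.66 ± 0.879 CPM in KlaxMUTE1 OE and 0.653 ± 0.249 CPM in wild type. Another cyclin of this list, KlGene001235 (similar to CYCB1-2), was not called (log2 fold change -0.09). It stood at 35.7 ± 9.90 CPM in KlaxMUTE1 OE (SD, n = 3) and 38.0 ± 5.36 CPM in wild type (SD, n = 4). None of these gene models was silent in wild type.

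Of the transcription factors, 7 of 40 tested were higher and 3 lower, and of the cytochrome P450 gene models 2 of 11 were higher and none lower. By their words, the former list holds KlGene001238, similar to the protease MBTPS1. The latter list holds the cytochrome P450 reductases KlGene000721 and KlGene001007, and none of these was called. Of the protein degradation list 2 of 28 were higher and 4 lower, and of the cell wall list 3 of 10 were higher and 1 lower. In the cuticle list 3 of 10 were higher and none lower, and in the defence and stress list 2 of 11 were higher and 1 lower. For tissues other than leaf blade, the reproduction list had 1 of 2 tested called lower, with summed levels of 0.425 to 1.11 CPM in KlaxMUTE1 OE and 0.42 to 1.53 CPM in wild type. The vascular list had 1 gene model, which was not called, at 7.67 to 9.87 CPM in KlaxMUTE1 OE and 5.47 to 6.86 CPM in wild type, and no note matched the seed list. Of the photosynthesis list, none of the 5 tested was higher and 2 were lower. Without wild-type reads were 10 of 52 listed transcription factors and 5 of 14 cytochrome P450 gene models. The cell wall list had 5 of 18, the defence and stress list 3 of 15 and the protein degradation list 4 of 32. The cuticle list had 2 of 12, the cell division list 1 of 19 and the photosynthesis, reproduction and vascular lists none. Over all 27768 gene models, 4685 besides KlaxMUTE1 were without a read in wild type. Of those in the lists, 3 transcription factors and 2 cytochrome P450 gene models reached 5 counts in a line. The cell division and protein degradation lists had 1 such gene model each, and the other lists had none.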

How the data were processed

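Reads were aligned by the authors with HISAT2 to the OBG genome of K. laxiflora, and unnormalized counts came from htseq-count. Tool versions, strand and multi-mapping settings are not given in the sources used. The authors deposited TPM values and a reads-per-kilobase signal as well, and the signal was not used. The deposited score columns, headed as group means of TPM, hold mean raw counts by their values and were not used either. Annotation notes came from the held part of the study's supplement, without its values. No sequence is shown, since none was held for these gene models.

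Members were taken from the counts. The test was edgeR 4.0.16 (TMM, glmQLFit, glmQLFTest; R 4.3.3) on the 21902 gene models that reached 10 summed counts. A call needed a log2 fold change past 1 in size and an adjusted p below 0.1. Alternatives were DESeq2 1.42.0 and voom in limma 3.58.1. A standard error is the size of the log2 fold change over the square root of F. The fits were checked on simulated counts, with changes placed only in gene models with enough expected reads. None of these was absent from wild type, so the check does not cover the members. P-values measure the spread between these individuals and lines. The members and lists were chosen with earlier results of these data known. Named were annotated members, the 2 others with the highest CPM in their lowest line, and annotated gene models silent in wild type that reached 5 counts in a line. All other identifiers, neighbours and list examples included, were chosen after their values were seen.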

Additional observations from a re-analysis of the deposited data

How the results depend on the processing

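The number of gene models follows the limits by construction. It was 37, 8 and 3 with at least 3, 10 or 20 counts in each KlaxMUTE1 OE library in place of 5, and 43 or 61 with at most 1 count over all or in each of the wild-type libraries in place of 0. A limit of 0.1 TPM in place of 5 counts gave 60. Leaving out 1 library at a time, it ranged between 27 and 44, since fewer libraries make the limits easier to meet. It was 44 without line 1, 33 without line 3, and 35, 31 and 33 without wild-type replicates 1, 2 and 4. With libraries thinned to equal totals it was 23, of which 18 were among the 20. The numbers highest in each line were the same with raw counts, library size, RLE and TPM. The median level was between 0.853 and 0.942 CPM with other scaling or with a line left out, against 0.851 CPM. Of the 20, 7 were called under filterByExpr, which tests only 7 of them and called 2317 of 19506 gene models higher. With the replicate number as a block, 14 of the 20 were called. No line has the number 4, so wild-type replicate 4 had a term of its own there and did not enter the contrast. The labels do not say that a number marks a shared origin. Deviations from the group mean had r between 0.0779 and 0.135 for same-numbered libraries. For the other pairs of a line and a wild-type library, r was between -0.157 and 0.0782. With 1 library left out at a time, 19 or 20 of the 20 were called. Those fits called between 1913 of 21814 and 2748 of 21655 tested gene models higher. KlGene026155 was not called with DESeq2 or limma-voom, and its adjusted p with edgeR was 0.0546. Over all gene models, a limit of 2 on the log2 fold change gave 1581 higher and 460 lower in place of 2761 and 1665, and the replicate block gave 1534 higher and 1219 lower. Library size alone gave 3539 and 1195, and moved the median log2 fold change from 0.07 to 0.27. Chosen after seeing the data, a limit of 10 counts left 61, 74 and 33 gene models on in lines 1 to 3 in place of 101, 159 and 78, against 1, 1, 0 and 2 in wild-type replicates 1 to 4, and thinning left 7 in wild-type replicate 2 in place of 11. Depth limits the 12 members with under 10 counts in a line, for which the lowest line rests on few reads.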
